A study of Mus musculus with 18 samples.

Results

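The effect of adenosine on gene expression in mouse double negative T cells was measured with and without a blocker of A2aR, the adenosine receptor A2a, and the 2 effects were set against each other gene by gene as the difference (RA minus R) minus (ADO minus DNT). Double negative T cells lack the coreceptors CD4 and CD8, and here they were made by conversion of wild type CD4+ T cells from spleen and lymph node. All groups were stimulated with antibodies to CD3 and CD28, and the ligand was present for 6 h. The RA libraries came from cells given 250 nM of the A2aR inhibitor and 400 µM adenosine, the R libraries from cells given the inhibitor alone, the ADO libraries from cells given 400 µM adenosine alone, and the DNT libraries from cells given neither. Each group held 3 libraries, so the difference rested on 12 of the 18 libraries of the series. Both count tables listed the same 53465 genes, of which 14965 had enough counts to be tested in the difference. RA and R were deposited in 1 table and ADO and DNT in another, so the inhibitor and the set of libraries changed together and cannot be told apart in any value of the difference. Whether libraries of 1 group derive from different cultures or mice is not stated in the labels, so the p-values cover the spread among these libraries alone.

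Adenosine outside the cell is made from ATP by the ectoenzymes CD39 and CD73 and is sensed by G protein coupled receptors. The A2a receptor, the main adenosine receptor of T cells, couples to Gs and raises cyclic AMP, which activates protein kinase A and the transcription factor CREB and restrains the output of inflammatory cytokines. The A2b receptor also couples to Gs and needs more adenosine, and adenosine can also enter cells through transporters and be phosphorylated there. The difference bears on which changes with adenosine were still measured when the inhibitor was present.

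Total counts per library ran from 20156082 to 23855783. The sets stood apart in composition: genes for ribosomal proteins took 10.8% to 11.5% of counts in RA and 9.5% to 15.2% in R, against 4.86% to 4.92% in ADO and 4.84% to 4.92% in DNT. The first principal component held 79.3% of the variance and parted RA and R from ADO and DNT. The common biological coefficient of variation, the spread between libraries of a group beyond counting error, was 19.6% for RA and R and 2.74% for ADO and DNT. Within R the libraries were unequal, and the third, R-3, stood farthest out, with a TMM factor (the scaling that corrects for composition) of 0.651 against 0.847 to 0.895 in the other R and RA libraries and 15.2% ribosomal protein counts. Counts of calls over classes and gene lists are therefore given with all 12 libraries and without R-3. Levels are CPM, counts scaled to library size with TMM factors, as mean ± SD over 3 libraries where no single libraries are given. Changes are log2 fold changes ± SE from edgeR's quasi-likelihood test, with p-values adjusted by Benjamini-Hochberg over all genes tested and a threshold of 0.05. The cells carried the transcripts of T cells, with Cd3e at 76.9 to 80.4 CPM in RA, 68.1 to 103 CPM in R, 135 to 145 CPM in ADO and 131 to 137 CPM in DNT. The 20 listed T cell identity genes together went the other way between the sets. They summed to 6880 to 7335 CPM in RA and 7166 to 7860 CPM in R, against 5212 to 5274 CPM in ADO and 5405 to 5448 CPM in DNT. Cd4 was at 2.19 CPM or less in every library. Cd8a, the gene of a CD8 chain, had enough counts to be tested in the difference, so its transcript was not absent. In bulk RNA, fewer cells of a type and less RNA per cell cannot be told apart.

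Adenosine without the inhibitor raised 3707 genes and lowered 3574 of 14512 tested, 25.5% and 24.6%. Adenosine under the inhibitor raised 37 genes and lowered 110 of 12873 tested, 0.287% and 0.855%. The difference itself was positive for 136 of 14965 genes (0.909%) and negative for 470 (3.14%), a negative value meaning that RA over R was lower than ADO over DNT. Without R-3 the same tests raised 725 genes under the inhibitor (5.5% of 13181) and lowered 994 (7.54%), and the difference was positive for 1633 genes (10.6% of 15442) and negative for 1418 (9.18%). At an unadjusted p under 0.05 there were 2605 genes in the difference and 1595 under the inhibitor. Beside the spread given above for RA and R, a gene that missed the threshold there is not shown to be unaffected.

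Changes of at least 2-fold with adenosine numbered 607 without the inhibitor, 364 rises and 243 falls, and each was put in a class by the 3 tests. A change was called lost where RA minus R did not pass and the difference passed against it, kept where RA minus R passed in the same direction and the difference did not pass, weakened or strengthened where both passed, and reversed where RA minus R passed the other way. With all 12 libraries 83 were lost (69 rises and 14 falls), 33 kept (15 rises and 18 falls), 6 weakened, 1 strengthened and 0 reversed. For 236 neither test passed, and 248 had too few counts in RA and R to be tested. Without R-3, 133 were lost (94 rises and 39 falls), 83 kept (38 and 45), 31 weakened, 6 strengthened and 8 reversed, with 124 undecided. The kept count was 6, 10 or 7 when RA-1, RA-2 or RA-3 was left out, 11 without R-1 and 42 without R-2. The weakened count lay between 1 and 31 with a library left out. The lost count was 122 without R-2, and between 53 and 57 without ADO-2, ADO-3, DNT-1, DNT-2 or DNT-3. It was 57 in a limma-voom fit with weights per set, which lets the sets differ in spread. The main test of the difference shares its dispersion across the sets, so its SE may be too small for some genes. Over the 7281 genes that adenosine changed by any amount, 435 were lost, 53 kept and 32 reversed with all libraries, and 1660, 614 and 286 without R-3.

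**Figure D1:**
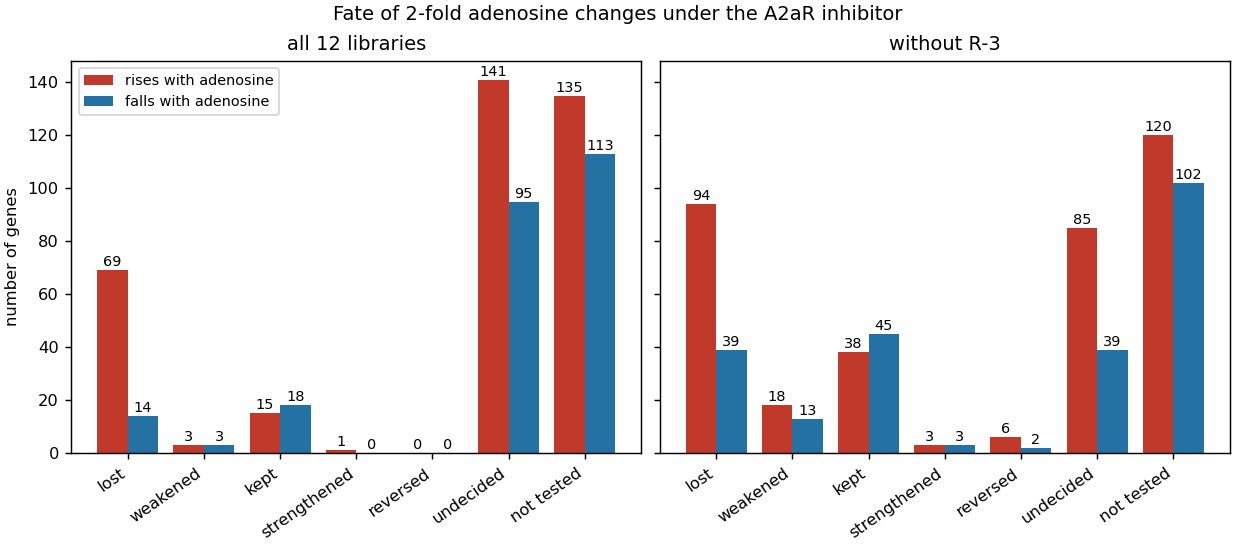
Number of genes in each class among the 607 genes changed at least 2-fold by adenosine without the inhibitor, with rises and falls as separate bars, for all 12 libraries (left) and without R-3 (right). Lost rises outnumbered lost falls, 69 against 14 with all libraries and 94 against 39 without R-3, while kept rises and falls numbered 15 and 18, and 38 and 45.

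Among the 229 rises that could be tested in RA and R, the median change was 0.36 under the inhibitor and 1.25 without it. Among the 130 testable falls it was −0.73 under the inhibitor and −1.28 without it. Of these 359 genes, 301 (83.8%) had the same sign under the inhibitor as without it, while over all 12484 genes tested in both, 59.5% did. The median change over those 12484 genes was −0.034 under the inhibitor and 0.0079 without it, and scaling by library size alone moved the median of all genes tested under the inhibitor to 0.093. The lost rises had a median change of 0.05 under the inhibitor against 1.22 without it, and the kept falls had −1.83 in both. The classes were defined by these same changes, so medians of this kind follow largely from the definitions.

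**Figure D2:**
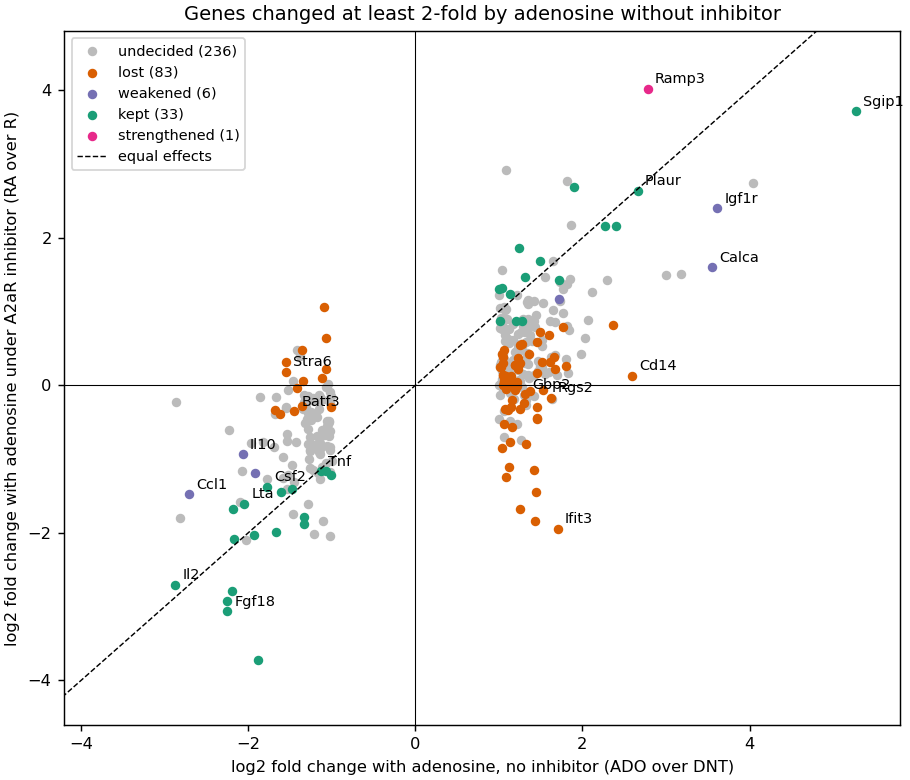
Log2 fold change with adenosine under the inhibitor (RA over R, vertical) against that without it (ADO over DNT, horizontal) for the 359 genes changed at least 2-fold by adenosine and tested in both sets, coloured by class. Il2 and Plaur lie near the dashed line of equal effects, lost genes such as Gbp2, Rgs2, Stra6 and Cd14 lie near the horizontal axis, and Ramp3 lies above the dashed line.

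The 18 kept falls included the cytokines Il2, Lta, Csf2, Tnf, Il6 and Il23a. Il2 (chr3:37120523-37125959, GRCm38), the growth factor that activated T cells make for themselves, had 11.4, 12.1 and 13.7 CPM in RA and 77.5, 55.8 and 109 CPM in R, against 6.16, 7.62 and 7.38 CPM in ADO and 51.1, 51.7 and 51.5 CPM in DNT. In both sets every library with adenosine lay below every library without it. The change was −2.70 ± 0.24 under the inhibitor (adjusted p = 0.0012) and −2.87 ± 0.06 without it, and the difference, 0.14 ± 0.29, did not pass (adjusted p = 0.87). An SE of this size leaves room for a modest weakening. Without R-3 the difference was larger, 0.46 ± 0.18, and again did not pass (adjusted p = 0.091). Tnf, the inflammatory cytokine, had 213, 193 and 172 CPM in RA and 439, 472 and 378 CPM in R, against 159, 167 and 152 CPM in ADO and 350, 346 and 340 CPM in DNT. Again the libraries with and without adenosine did not overlap in either set. The change was −1.17 ± 0.18 under the inhibitor and −1.12 ± 0.02 without it.

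Lta and Csf2 were also kept with all 12 libraries. Lta, which encodes lymphotoxin alpha, had 55.7, 49.0 and 45.1 CPM in RA and 148, 162 and 142 CPM in R, against 33.3, 32.1 and 31.5 CPM in ADO and 131, 134 and 132 CPM in DNT. Its change was −1.61 ± 0.16 under the inhibitor and −2.04 ± 0.04 without it, with a difference of 0.42 ± 0.13 (adjusted p = 0.1). Csf2, which encodes the growth factor GM-CSF, had 225, 232 and 212 CPM in RA and 522, 414 and 799 CPM in R, against 90.5, 93.9 and 86.8 CPM in ADO and 309, 311 and 302 CPM in DNT. Its change was −1.37 ± 0.23 under the inhibitor and −1.77 ± 0.03 without it. The R value of 799 CPM was that of R-3, and without this library both Lta and Csf2 were weakened, not kept. Il6 changed by −1.22 ± 0.17 under the inhibitor and −1.0 ± 0.08 without it, and Il23a, a subunit of interleukin 23, by −1.40 ± 0.17 and −1.48 ± 0.05. Cd70, a TNF family ligand, and Mgll, a lipase that breaks down endocannabinoids, were kept falls as well, with changes of −2.08 ± 0.21 and −1.67 ± 0.22 under the inhibitor against −2.17 ± 0.24 and −2.18 ± 0.11 without it. Tnf, Il2, Il6, Il23a, Cd70 and Mgll stayed in the class without R-3. Of the 18 kept falls, however, only 4 stayed in it without RA-1 or RA-3, and 7 without RA-2 or R-1. Il6, Il23a and Cd70 were picked after their values were seen.

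The 15 kept rises had a median level of 6.55 CPM in RA and 2.47 CPM in R, against 17.4 CPM in ADO and 3.54 CPM in DNT. Plaur, the receptor of urokinase, had 5.92, 7.0 and 5.73 CPM in RA and 0.762, 0.975 and 1.26 CPM in R, against 19.8, 21.3 and 20.04 CPM in ADO and 3.66, 3.09 and 2.85 CPM in DNT. Its change was 2.64 ± 0.25 under the inhibitor (adjusted p = 0.0012) and 2.66 ± 0.10 without it, although each level in ADO was above every level in RA. Tbc1d4, a regulator of glucose transporter traffic, changed by 1.42 ± 0.20 under the inhibitor and 1.72 ± 0.13 without it. Tg, better known as the thyroid hormone precursor, changed by 1.68 ± 0.25 and 1.5 ± 0.12, and Nebl, an actin binding protein of muscle, by 1.47 ± 0.21 and 1.31 ± 0.14. Sgip1, an endocytic protein, had the steepest rise of these without the inhibitor, with 1.13 ± 0.55 CPM in RA and 0.085 ± 0.055 CPM in R, against 6.35 ± 0.77 CPM in ADO and 0.161 ± 0.092 CPM in DNT. All 5 were also kept without R-3. Of the 15 kept rises, however, only 2 stayed in the class without RA-1, 3 without RA-2 or RA-3, and 4 without R-1. Il7r and Ccr7, the interleukin 7 receptor and the lymph node homing receptor, were kept with all libraries, with changes of 1.31 ± 0.15 and 0.88 ± 0.17 under the inhibitor against 1.0 ± 0.06 and 1.28 ± 0.05 without it. Without R-3, Il7r was strengthened and Ccr7 weakened.

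Weakened changes kept their direction but were smaller under the inhibitor. Ccl1, a T cell chemokine, had 436, 416 and 437 CPM in RA and 1104, 1040.1 and 1424 CPM in R, against 63.5, 60.0 and 64.1 CPM in ADO and 399, 412 and 406 CPM in DNT. It fell by 1.47 ± 0.18 under the inhibitor and by 2.70 ± 0.03 without it, a difference of 1.21 ± 0.18 (adjusted p = 0.0025). Il10, the anti-inflammatory cytokine, had 324, 354 and 321 CPM in RA and 674, 509 and 715 CPM in R, against 6.27, 4.90 and 6.40 CPM in ADO and 25.2, 23.97 and 24.2 CPM in DNT. In each set the adenosine libraries were the lower ones, yet the level of Il10 was at least an order of magnitude higher throughout RA and R than in ADO and DNT. It fell by 0.93 ± 0.18 under the inhibitor and by 2.07 ± 0.08 without it, a difference of 1.11 ± 0.20 (adjusted p = 0.0092). Pdgfb, a growth factor subunit, fell by 1.18 ± 0.17 under the inhibitor and by 1.92 ± 0.05 without it, but its difference did not pass when any RA, ADO or DNT library was left out. Among the rises, Igf1r, the receptor of insulin-like growth factor 1, had 5.35, 4.88 and 6.25 CPM in RA and 0.820, 1.22 and 1.04 CPM in R, against 37.2, 35.7 and 36.7 CPM in ADO and 3.38, 2.63 and 2.85 CPM in DNT. It rose by 2.40 ± 0.25 under the inhibitor and by 3.62 ± 0.08 without it, a difference of −1.23 ± 0.24 (adjusted p = 0.011). The other weakened rises were Dgat1, an enzyme of triglyceride synthesis, and Calca, the calcitonin gene. All 6 were also weakened without R-3.

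Ramp3 was the strengthened gene among the 2-fold changes. It encodes a partner protein that sets the ligand preference of calcitonin family receptors. Its levels were 26.4, 24.04 and 22.9 CPM in RA and 1.64, 1.71 and 1.04 CPM in R, against 103, 102 and 99.8 CPM in ADO and 15.4, 14.7 and 13.96 CPM in DNT. All R values were far below all DNT values, and all RA values below all ADO values. The rise was 4.02 ± 0.24 under the inhibitor and 2.78 ± 0.05 without it, a difference of 1.22 ± 0.18 (adjusted p = 0.0024).

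Lost rises numbered 69. Gbp2, an interferon-inducible GTPase of cell-autonomous defence, had 58.8, 59.0 and 56.8 CPM in RA and 67.0, 63.7 and 57.0 CPM in R, against 152, 143 and 152 CPM in ADO and 58.2, 57.3 and 62.9 CPM in DNT. The ADO libraries alone stood out, and the others overlapped between 56.8 and 67.0 CPM. The change was −0.12 ± 0.15 under the inhibitor and 1.32 ± 0.03 without it, a difference of −1.44 ± 0.13 (adjusted p = 3.7e-05). Rgs2, which shortens G protein signalling and is a known cyclic AMP responsive gene, gave another picture, with 82.5, 81.9 and 83.8 CPM in RA and 81.7, 67.2 and 130 CPM in R, against 78.9, 78.6 and 81.1 CPM in ADO and 25.4, 25.0 and 26.7 CPM in DNT. Here DNT alone was low, and R was already near the level of ADO. The change was −0.17 ± 0.22 under the inhibitor and 1.62 ± 0.04 without it, a difference of −1.82 ± 0.27 (adjusted p = 0.0025). Both kinds occurred among the lost rises: on the log scale the mean level in R was nearer to ADO than to DNT for 21 of 69, and for 15 it was above ADO. Ier5l, Tnfrsf26 (a decoy death receptor of mice), Perp (a p53 target) and Cxcr4 (the receptor of the chemokine CXCL12) were lost with differences of −1.46 ± 0.19, −1.28 ± 0.17, −0.93 ± 0.19 and −1.29 ± 0.21. Perp and Ctla4, a coinhibitory receptor with a difference of −0.71 ± 0.16, were weakened instead without R-3, as RA minus R then passed. The difference of Ctla4 did not pass when any one was left out of RA-1, RA-2, RA-3, ADO-1, ADO-2, ADO-3, DNT-1 or DNT-2, nor that of Perp without RA-3, ADO-2, DNT-1 or DNT-2.

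Lost falls numbered 14 and included transcription factors. Batf3, a basic leucine zipper factor, had 65.5, 63.1 and 57.4 CPM in RA and 73.6, 71.5 and 91.6 CPM in R, against 10.6, 11.9 and 13.1 CPM in ADO and 33.7, 31.8 and 31.3 CPM in DNT. Its change was −0.35 ± 0.16 under the inhibitor and −1.45 ± 0.07 without it, a difference of 1.08 ± 0.17 (adjusted p = 0.0042). Zfp683, which encodes the tissue residency factor Hobit, had 7.86, 6.69 and 9.02 CPM in RA and 8.20, 8.78 and 7.04 CPM in R, against 6.60, 7.33 and 7.31 CPM in ADO and 18.4, 20.9 and 17.0 CPM in DNT, a difference of 1.36 ± 0.19. Levels in R were near those in ADO, and DNT alone was high. Stra6, a retinol transporter, and Crybg2 were the other members named, with differences of 1.72 ± 0.21 and 1.32 ± 0.26. Irf4, the activation-induced factor of effector T cells, fell by just under 2-fold without the inhibitor, by 0.93 ± 0.02. It had 276, 262 and 288 CPM in RA and 242, 324 and 208 CPM in R, against 284, 276 and 283 CPM in ADO and 531, 532 and 536 CPM in DNT, a difference of 1.0 ± 0.18 (adjusted p = 0.0086). For 5 of the 14 lost falls the mean level in R was nearer to ADO than to DNT. Batf3, Zfp683, Stra6, Crybg2 and Irf4 were also lost without R-3.

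**Figure D3:**
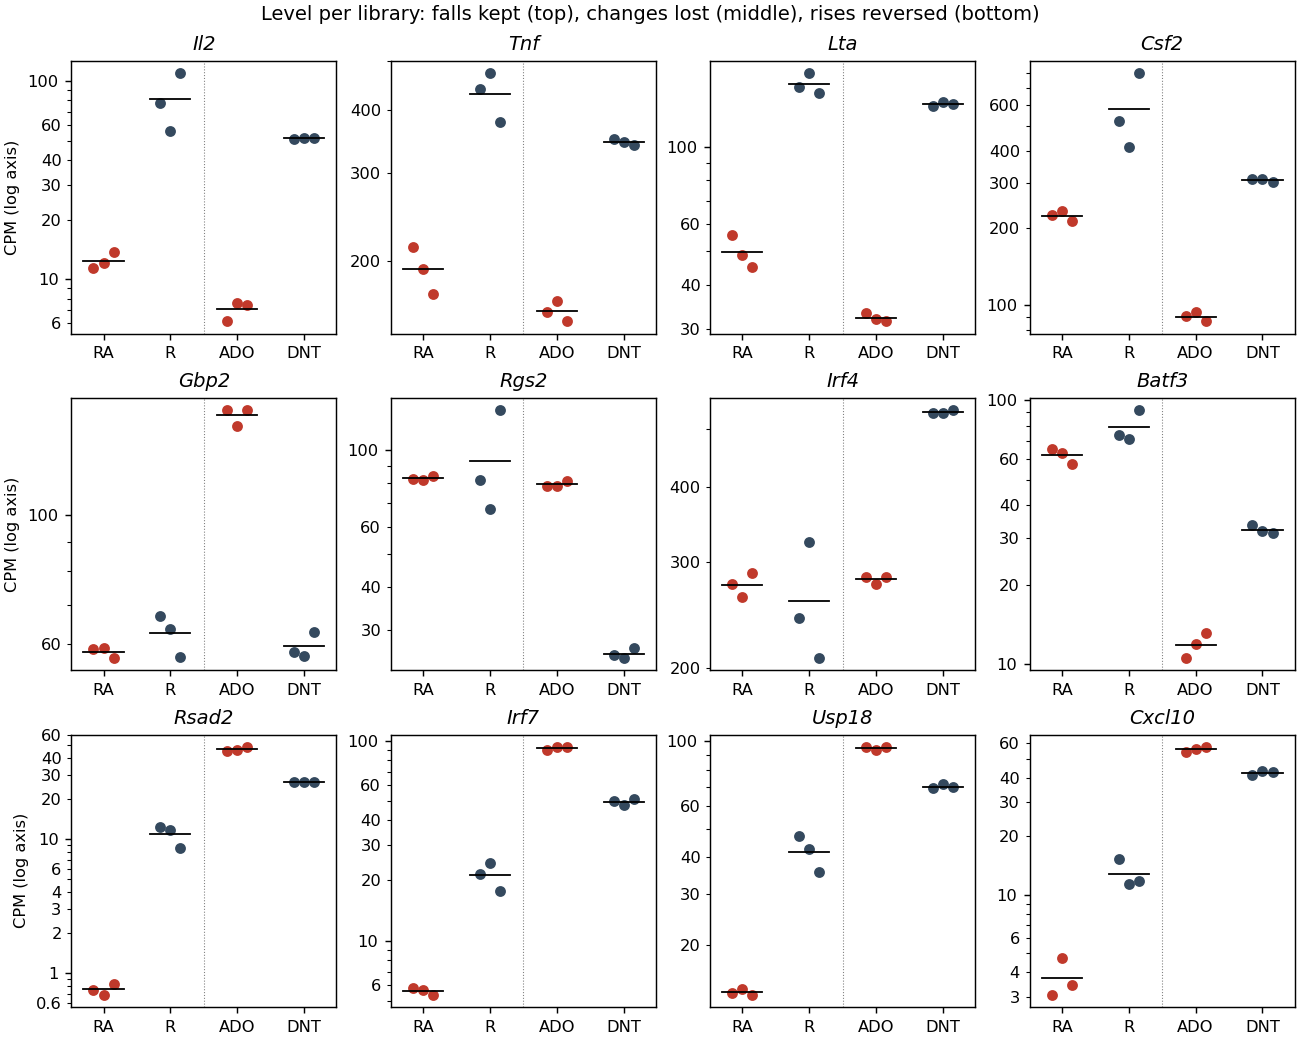
Level in CPM on a log axis for 12 genes in the 3 libraries of each of RA, R, ADO and DNT, with a bar at the mean of each group. Adenosine lowers the top row in both sets, the middle row differs between ADO and DNT but not beyond the test between RA and R, and the bottom row is lower in RA than in R but higher in ADO than in DNT.

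With all 12 libraries 32 genes were reversed, each with an adenosine change of less than 2-fold without the inhibitor. Of these, 11 were on the list of interferon-stimulated genes, which held 38 of the 14965 genes tested in the difference. Interferon-stimulated genes answer to type I and type II interferons, through the STAT and IRF factors, and encode antiviral proteins. Of the 32 reversed genes, 31 rose with adenosine and fell with adenosine under the inhibitor, and all 32 were among the 286 genes reversed without R-3, of which 15 were on the list. Rsad2, which encodes the antiviral enzyme viperin, had 0.741, 0.690 and 0.834 CPM in RA and 12.2, 11.7 and 8.52 CPM in R, against 45.5, 46.4 and 48.7 CPM in ADO and 26.7, 26.8 and 26.8 CPM in DNT. All libraries of a group lay apart from those of every other group. Its change was −3.85 ± 0.27 under the inhibitor and 0.80 ± 0.05 without it, a difference of −4.66 ± 0.20 (adjusted p = 1.2e-07). Irf7, the factor that amplifies type I interferon production, had 5.81, 5.68 and 5.37 CPM in RA and 21.6, 24.4 and 17.8 CPM in R, against 90.4, 93.0 and 93.2 CPM in ADO and 50.0, 47.9 and 50.9 CPM in DNT, a difference of −2.83 ± 0.15. Usp18, a protease that removes ISG15 and dampens interferon receptor signalling, had 13.6, 14.1 and 13.5 CPM in RA and 47.2, 42.7 and 35.6 CPM in R, against 95.8, 93.7 and 95.7 CPM in ADO and 69.0, 71.2 and 69.6 CPM in DNT, a difference of −2.07 ± 0.14. Cxcl10, the interferon-induced chemokine, had a difference of −2.19 ± 0.21. The level in R was below that in DNT for Rsad2, Irf7, Usp18 and Cxcl10.

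Of the 39 interferon response genes listed, 38 were tested in the difference and 34 in RA and R. Adenosine raised 33 and lowered 1 without the inhibitor, and raised 0 and lowered 13 under it, or 19 without R-3. Over all genes it raised 25.5% and lowered 24.6% without the inhibitor. Under the inhibitor these shares were 0.287% and 0.855%, and 5.5% and 7.54% without R-3. The difference was negative for 29 of 38 and positive for 0, with a median of −1.48, beside a median of −0.06 and 3.14% negative calls over all genes tested. Without R-3 it was negative for 35, beside 9.18% over all genes. By class, 11 were reversed and 13 lost with all libraries, and 15 and 13 without R-3. The reversed members were Rsad2, Oasl1, Rtp4, Irf7, Ifit1, Oasl2, Oas3, Cxcl10, Isg15, Oas1a and Usp18, all of them typical targets of type I interferon. The lost members were mostly interferon-inducible GTPases, namely Gbp2, Gbp3, Gbp4, Gbp5, Gbp7, Igtp, Irgm1 and Irgm2, together with Ifi47, Zbp1, Ddx58, Ifit2 and Ifit3. Isg20 was the exception, with a fall in both sets that was larger under the inhibitor, −1.25 against −0.17. Beyond the list, the reversed genes included 6 of the Ifi200 DNA sensor family (Ifi203, Ifi204, Ifi206, Ifi208, Ifi209 and Ifi214), Xaf1, Dhx58, Helz2, Trim30a and Trim30d, all named after their values were seen. Members of the Ifi200, Oas and Trim30 families resemble each other closely, and how the counting shared reads between them is not given, so their single values are uncertain.

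**Figure D4:**
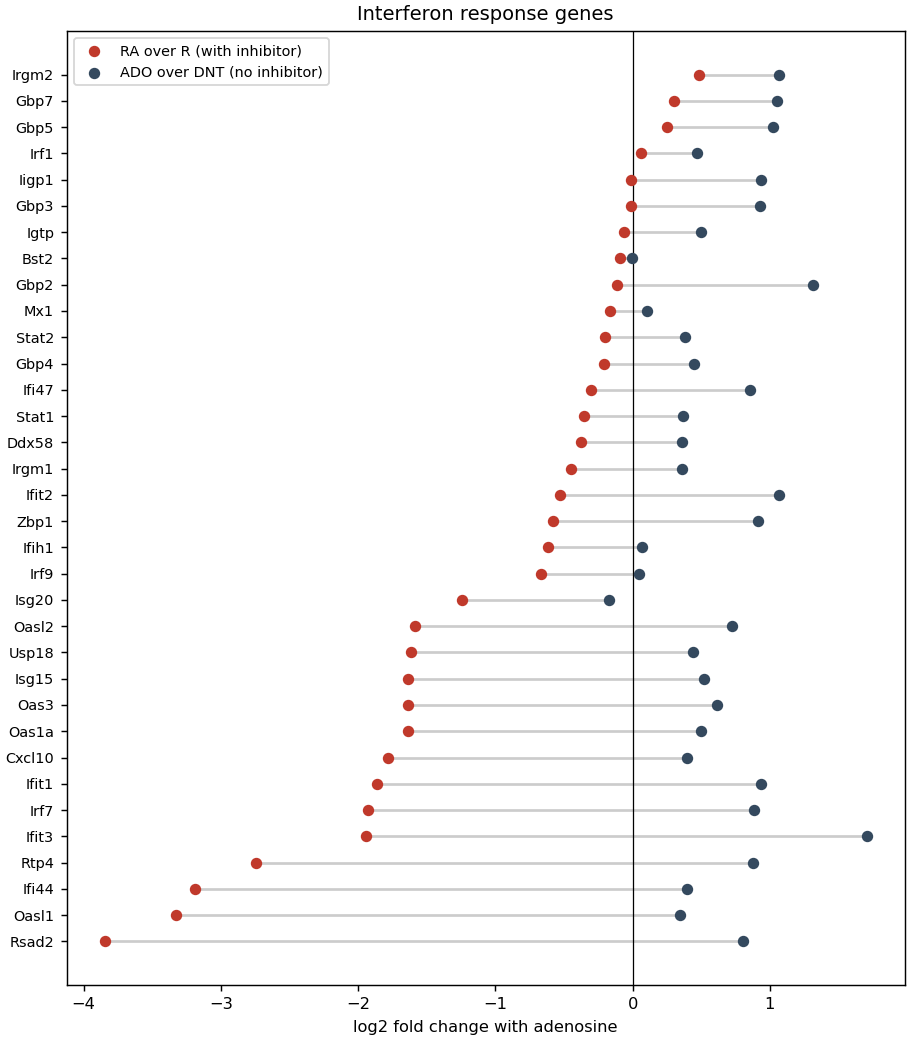
Log2 fold change with adenosine under the inhibitor (RA over R) and without it (ADO over DNT) for the 34 interferon response genes tested in both sets, sorted by the change under the inhibitor. Most points for ADO over DNT lie right of 0, while those for RA over R reach −3.85 at Rsad2, and the GTPases Gbp2, Gbp3 and Igtp lie near 0 under the inhibitor.

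Promoter sequences of these genes were searched for the core of the interferon-stimulated response element, GAAANNGAAA on either strand, in RefSeq promoters of GRCm38.p6 that run from 250 bases before to 50 after each gene's start. The search was added after the values were seen. The core was present in 12 of the 27 reversed genes with a promoter entry (44.4%), in 12 of 52 lost 2-fold rises (23.1%), and in 0 of 12 kept rises and 0 of 13 kept falls. It was present in 3.17% of the promoters of genes tested in the difference and in 3.49% of all promoters. Within the interferon list it was found in 20 of 29. A match is a run of letters and not a measured binding site. The promoters below show 2 reversed genes with the core, 1 lost gene with it and 1 kept gene without it, in the direction of transcription, with the core in capitals. Rsad2 is at chr12:26456403-26456702 on the minus strand, Isg15 at chr4:156200769-156201068 on the minus strand, Gbp2 at chr3:142620413-142620712 on the plus strand and Il2 at chr3:37125905-37126204 on the minus strand.
Rsad2: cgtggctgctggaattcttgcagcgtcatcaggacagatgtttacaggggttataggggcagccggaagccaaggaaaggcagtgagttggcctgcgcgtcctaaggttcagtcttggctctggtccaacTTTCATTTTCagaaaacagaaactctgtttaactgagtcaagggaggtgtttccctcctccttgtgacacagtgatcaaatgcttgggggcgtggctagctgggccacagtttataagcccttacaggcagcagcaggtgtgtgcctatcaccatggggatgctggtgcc
Isg15: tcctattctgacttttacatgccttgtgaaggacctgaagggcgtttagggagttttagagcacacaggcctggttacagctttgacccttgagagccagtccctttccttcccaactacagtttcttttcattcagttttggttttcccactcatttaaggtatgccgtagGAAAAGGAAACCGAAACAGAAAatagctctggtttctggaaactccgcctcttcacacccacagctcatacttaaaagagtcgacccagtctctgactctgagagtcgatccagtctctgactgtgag
Gbp2: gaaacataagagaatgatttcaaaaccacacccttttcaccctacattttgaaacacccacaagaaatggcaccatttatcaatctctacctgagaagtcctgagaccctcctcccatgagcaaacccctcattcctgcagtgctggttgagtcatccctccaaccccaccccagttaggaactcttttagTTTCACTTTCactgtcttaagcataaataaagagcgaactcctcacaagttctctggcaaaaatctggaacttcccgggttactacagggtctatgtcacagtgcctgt
Il2: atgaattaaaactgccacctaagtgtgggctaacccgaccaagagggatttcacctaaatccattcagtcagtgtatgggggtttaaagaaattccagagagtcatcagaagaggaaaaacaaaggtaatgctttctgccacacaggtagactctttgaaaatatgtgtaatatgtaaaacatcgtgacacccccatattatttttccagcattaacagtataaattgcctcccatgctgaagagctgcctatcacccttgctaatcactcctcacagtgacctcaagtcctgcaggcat
In Rsad2 the core lies on the opposite strand, starting at position −120 from the gene's start, and in Gbp2 at −59, also on the opposite strand. Isg15 holds 3 overlapping matches, which form 1 run of capitals. The Irf7 promoter held no match, although Irf7 was among the reversed genes.

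Il17f moved the other way and, with all 12 libraries, was the only reversed gene with a positive difference. Without R-3, 89 of the 286 reversed genes had one. This cytokine of type 17 responses had 62.9, 63.9 and 60.9 CPM in RA and 30.9, 25.4 and 28 CPM in R, against 21.5, 19.9 and 19.8 CPM in ADO and 21.1, 23.6 and 23.0 CPM in DNT. It rose by 1.15 ± 0.16 under the inhibitor and fell by 0.15 ± 0.06 without it, a difference of 1.28 ± 0.14 (adjusted p = 0.00028). The fall without the inhibitor only just passed (adjusted p = 0.040), and the ADO and DNT libraries overlapped, so the call of reversed rests on a small change. Gzmf, a granzyme, was reversed as well, with 175, 174 and 159 CPM in RA and 334, 274 and 353 CPM in R, against 37.9, 38.4 and 36.0 CPM in ADO and 24.8, 24.3 and 25.7 CPM in DNT, a difference of −1.53 ± 0.16. Its neighbour Gzmg was lost, with a difference of −0.86 ± 0.19 that did not pass when any RA, ADO or DNT library was left out. The granzyme genes of this cluster are near copies of each other, so their split is uncertain too.

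Changes measured under the inhibitor but not without it, called gained, numbered 27 with all 12 libraries, of which 25 had a negative and 2 a positive difference. Without R-3 there were 432, of which 218 had a negative and 214 a positive difference, so neither the number nor the direction held without this library. Ccr4, a chemokine receptor of helper and regulatory T cells, had 19.4, 18.04 and 19.1 CPM in RA and 9.49, 9.56 and 6.74 CPM in R, against 8.36, 8.93 and 8.69 CPM in ADO and 8.42, 8.28 and 7.35 CPM in DNT. RA alone was high, and the difference was 1.0 ± 0.18 (adjusted p = 0.0078). Avil, an actin-regulating protein, had 35.5, 32.7 and 31.5 CPM in RA and 91.2, 126 and 82.1 CPM in R, against 33.4, 33.4 and 31.9 CPM in ADO and 32.6, 30.5 and 30.6 CPM in DNT. For this gene R alone was high, and the difference was −1.68 ± 0.18. Gpc1, a cell surface proteoglycan, had the same arrangement with a difference of −1.18 ± 0.13. Nrgn, a calmodulin binding protein, and Adgrg3, an adhesion G protein coupled receptor, had differences of −1.01 ± 0.19 and −1.15 ± 0.24. All 5 were gained without R-3 as well.

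Genes that respond to cyclic AMP were not a uniform group. Of 28 measured targets of the cyclic AMP and CREB pathway, adenosine raised 14 and lowered 8 without the inhibitor, and raised 0 and lowered 1 under it. Without R-3 it raised 2 and lowered 7 under the inhibitor, beside 5.5% and 7.54% over all genes. In this list R-2 was the highest R library, with a median log2 CPM of 5.63 against 5.08 in R-1 and 5.04 in R-3. With all libraries the shares over all genes were 25.5% and 24.6% without the inhibitor, and 0.287% and 0.855% under it. The median change was −0.13 under the inhibitor and 0.19 without it, beside −0.034 and 0.0079 over all genes. The difference was negative for 3 and positive for 0 with all libraries, and negative for 13 without R-3, beside 3.14% and 9.18% over all genes. Those 3 were Rgs2, Fos and Dusp1. Fos, a subunit of the AP-1 factor, had 2.96, 3.56 and 3.80 CPM in RA and 3.87, 3.90 and 3.19 CPM in R, against 13.0, 14.6 and 14.6 CPM in ADO and 6.62, 7.90 and 6.95 CPM in DNT. ADO stood above DNT in every library, while RA and R overlapped, and the difference was −1.08 ± 0.20 (adjusted p = 0.0091). Dusp1, a phosphatase of MAP kinases, had a difference of −1.15 ± 0.28 and was reversed without R-3, but did not pass when any RA, ADO or DNT library was left out. Crem, which encodes the cyclic AMP inducible repressor ICER, had 109, 113 and 118 CPM in RA and 69.3, 58.2 and 120 CPM in R, against 181, 173 and 181 CPM in ADO and 73.5, 75.0 and 77.3 CPM in DNT. R-3 lay above the other R libraries and above RA. The difference in Crem was −0.81 ± 0.29 with all libraries and did not pass (adjusted p = 0.15). Without R-3 Crem was weakened.

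Rgs2, Fos and Dusp1 carry the short core of the cyclic AMP response element, TGACG on either strand, in their promoters. This letter run was found in 15 of 22 promoters of the cyclic AMP list, in 10 of 52 lost 2-fold rises (19.2%), 3 of 10 lost 2-fold falls (30.0%), 2 of 12 kept rises (16.7%), 1 of 13 kept falls (7.69%) and 9 of 27 reversed genes (33.3%), beside 32.0% of the promoters of genes tested. The full element, TGACGTCA, was in 0 of the lost or kept 2-fold changes, in 1 of 27 reversed genes and in 3.30% of the genes tested. The promoters of Rgs2 (chr1:144004100-144004399, minus strand), Fos (chr12:85473640-85473939, plus strand) and Dusp1 (chr17:26508423-26508722, minus strand) are shown with this core in capitals, as the 3 lost genes of this list. In Dusp1 a pair of overlapping matches on opposite strands forms the full element.
Rgs2: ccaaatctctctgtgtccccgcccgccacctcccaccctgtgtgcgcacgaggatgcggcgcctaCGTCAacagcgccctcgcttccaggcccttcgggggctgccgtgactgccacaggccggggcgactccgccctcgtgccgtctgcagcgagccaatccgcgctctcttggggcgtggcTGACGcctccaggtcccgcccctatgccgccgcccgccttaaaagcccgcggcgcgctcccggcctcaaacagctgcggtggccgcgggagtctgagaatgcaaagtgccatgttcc
Fos: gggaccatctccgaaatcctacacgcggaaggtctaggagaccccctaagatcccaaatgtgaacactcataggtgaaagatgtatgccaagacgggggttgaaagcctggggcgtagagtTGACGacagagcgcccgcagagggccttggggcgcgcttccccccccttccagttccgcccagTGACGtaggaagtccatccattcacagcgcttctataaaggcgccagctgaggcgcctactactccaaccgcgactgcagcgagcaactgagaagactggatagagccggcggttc
Dusp1: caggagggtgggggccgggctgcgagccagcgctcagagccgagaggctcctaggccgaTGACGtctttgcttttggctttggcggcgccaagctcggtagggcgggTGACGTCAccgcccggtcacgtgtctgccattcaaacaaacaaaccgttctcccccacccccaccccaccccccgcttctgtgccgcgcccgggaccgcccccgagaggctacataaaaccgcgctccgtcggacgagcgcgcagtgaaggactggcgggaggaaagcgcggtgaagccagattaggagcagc

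Of 8 tested phosphodiesterase genes, whose products break down cyclic AMP, 3 rose and 3 fell without the inhibitor, and 0 passed under it or in the difference. By class 5 were undecided, 2 passed in neither pair of groups, and Pde4c, which fell by 1.53 ± 0.33 without the inhibitor, had too few counts in RA and R. Without R-3, 1 rose under the inhibitor and 2 had a negative difference, beside 5.5% and 9.18% over all genes. With all libraries, the shares over all genes were 25.5% rises and 24.6% falls without the inhibitor. Under it they were 0.287% and 0.855%, and the difference was positive for 0.909% and negative for 3.14%. Pde4d had 10.3, 11.3 and 10.3 CPM in RA and 5.21, 8.34 and 6.15 CPM in R, against 54.8, 55.4 and 55.2 CPM in ADO and 21.7, 21.7 and 20.5 CPM in DNT. Its change was 0.68 ± 0.21 under the inhibitor and 1.37 ± 0.05 without it, a difference of −0.71 ± 0.19 (adjusted p = 0.053), and without R-3 it was lost. Pde4b had changes of 0.68 ± 0.17 under the inhibitor and 0.93 ± 0.04 without it and was weakened without R-3. Nr4a1, an immediate early nuclear receptor, had a difference of −0.45 ± 0.18 (adjusted p = 0.19) and was lost without R-3.

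The genes that make and sense adenosine differed from each other. Adora2a, the gene of the inhibited receptor, had 74.7, 68.3 and 67.9 CPM in RA and 90.4, 109 and 99.2 CPM in R, against 143, 143 and 141 CPM in ADO and 131, 129 and 130 CPM in DNT. The small rise without the inhibitor, 0.12 ± 0.03, was lost, with a change of −0.51 ± 0.15 under the inhibitor and a difference of −0.65 ± 0.13 (adjusted p = 0.013). Without R-3 Adora2a was reversed, and without DNT-1 its difference did not pass. Adora2b, the A2b receptor gene, had changes of −0.14 ± 0.20 under the inhibitor and −0.16 ± 0.05 without it, with no difference past the test (adjusted p = 0.995). Nt5e, which encodes CD73, had 18.9, 19.6 and 17.1 CPM in RA and 16.0, 14.3 and 21.0 CPM in R, against 58.9, 59.1 and 61.2 CPM in ADO and 33.5, 32.1 and 31.7 CPM in DNT. The rise without the inhibitor was lost, with a difference of −0.78 ± 0.18 (adjusted p = 0.034), a call that ended when any RA, ADO or DNT library was left out. Entpd1, which encodes CD39, had 104, 93.4 and 90.0 CPM in RA and 84.2, 76.8 and 73.3 CPM in R, against 48.8, 47.1 and 47.6 CPM in ADO and 65.5, 62.4 and 61.9 CPM in DNT. It fell without the inhibitor and this fall was lost, with a difference of 0.68 ± 0.13 (adjusted p = 0.0099). Of the 22 tested genes of adenosine and ATP handling, 1 had a positive and 2 a negative difference, beside 0.909% and 3.14% over all genes. Without R-3 these were 2 and 4, beside 10.6% and 9.18%.

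Effector genes gave mixed classes. Ifng, the type II interferon, had 2254, 2356 and 2392 CPM in RA and 2612, 2161 and 5278 CPM in R, against 519, 492 and 479 CPM in ADO and 1243, 1219.7 and 1253 CPM in DNT. R-3 lay far above the other R libraries. With it the difference was 0.77 ± 0.36 and did not pass (adjusted p = 0.30), and without it the difference was 1.30 and the fall was lost. Gzmb, the killer protease granzyme B, had changes of 0.04 ± 0.29 under the inhibitor and −0.19 ± 0.01 without it, and Prf1, the pore former perforin, of −0.59 ± 0.22 and −0.47 ± 0.02. Both were undecided, and without R-3 Gzmb was lost and Prf1 kept. Icos, a costimulatory receptor, had changes of 0.74 ± 0.16 under the inhibitor and 1.32 ± 0.05 without it (adjusted p of the difference 0.059), and was weakened without R-3. Il24, a cytokine, and Tnfsf10, which encodes the death ligand TRAIL, were lost falls, with differences of 1.08 ± 0.13 and 0.70 ± 0.15, of which that of Tnfsf10 ended without any single ADO or DNT library, RA-2 or RA-3. Of 30 T cell cytokine genes tested in the difference, adenosine lowered 22 and raised 4 without the inhibitor. Over all genes it lowered 24.6% and raised 25.5%. Under the inhibitor 28 cytokine genes were tested, of which 7 fell and 1 rose, against 13 and 5 without R-3. The shares over all genes were 0.855% and 0.287% with all libraries, and 7.54% and 5.5% without R-3. The median change of the cytokine genes was −0.40 under the inhibitor and −0.35 without it. Without R-3 the median under the inhibitor was −0.16, so the closeness of the 2 medians depended on this library. The median difference was 0.19 with all libraries and 0.27 without R-3. The difference was positive for 6 and negative for 1, Ltb, whose fall was larger under the inhibitor (−1.09 ± 0.17 against −0.23 ± 0.04). By class, 5 cytokines were kept, 3 lost, 1 weakened, 1 strengthened and 1 reversed, and 14 were undecided. Without R-3 the difference was positive for 12 and negative for 5, and 8 cytokines were kept, 6 lost, 3 weakened, 3 strengthened and 2 reversed, with 3 undecided. Over all genes the difference was positive for 0.909% and negative for 3.14% with all libraries, and for 10.6% and 9.18% without R-3.

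Over 40 cell cycle genes the median change was 0.36 under the inhibitor and 0.33 without it. Without the inhibitor 36 rose, and under it 1 passed, Cdc6, which loads the replicative helicase, with a change of 0.88 ± 0.16. Without R-3 16 rose under the inhibitor. Cenpa, the centromeric histone, was the one member with a difference past the test with all 12 libraries, −0.63 ± 0.14 (adjusted p = 0.024). Without R-3, 7 members had a positive and 4 a negative difference. Endoplasmic reticulum stress genes went the other way: 19 of 23 fell and 2 rose without the inhibitor, 0 passed under it, and the difference was positive for 3, Creld2, Sdf2l1 and Dnajc3, and for 12 without R-3, with 1 negative and 3 rises under the inhibitor. The ATF4 amino acid response had 27 falls and 1 rise among 33 genes without the inhibitor, 0 calls under it and 0 in the difference, with 3 falls under the inhibitor and 6 positive differences without R-3. Cholesterol synthesis genes had 13 rises and 2 falls among 25 without the inhibitor and 0 calls under it, and the difference was negative for Mvk, Tm7sf2 and Mvd, with −1.01 ± 0.14, −0.99 ± 0.20 and −0.58 ± 0.14. Without R-3, 10 of the 25 had a negative difference and 8 fell under the inhibitor. Glycolysis and hypoxia genes likewise had 3 negative differences among 30, in Bnip3l, Aldoc and Aldoa, and 0 calls under the inhibitor. Without R-3 there were 10 negative differences and 10 falls under the inhibitor. R-2 was the highest R library for glycolysis and hypoxia genes, with a median log2 CPM of 7.39 against 6.66 in R-1 and 6.75 in R-3. For cholesterol synthesis it had 6.48, against 6.16 in R-1 and 5.83 in R-3. The part of R-2 in the counts without R-3 was not tested. Among 18 genes of quiescence and homing, 13 rose without the inhibitor and 2 under it, and the rises of Tcf7 and Klf2, transcription factors of naive and memory T cells, were lost with differences of −1.04 ± 0.24 and −1.06 ± 0.27. Without R-3, 9 of the 18 had a negative and 3 a positive difference, and 5 rose and 2 fell under the inhibitor. The counts of differences stand beside shares over all genes of 0.909% positive and 3.14% negative with all libraries, and 10.6% and 9.18% without R-3. Over all genes adenosine raised 25.5% and lowered 24.6% without the inhibitor. Under the inhibitor 0.287% rose and 0.855% fell, so 0 calls in lists of this size lie near those shares. Without R-3 they were 5.5% and 7.54%. In these metabolic, stress, cell cycle and homing lists, the differences of Cenpa, Sdf2l1, Dnajc3, Mvd, Aldoa, Aldoc, Tcf7 and Klf2 each failed the test when any of several single libraries was left out.

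**Figure D5:**
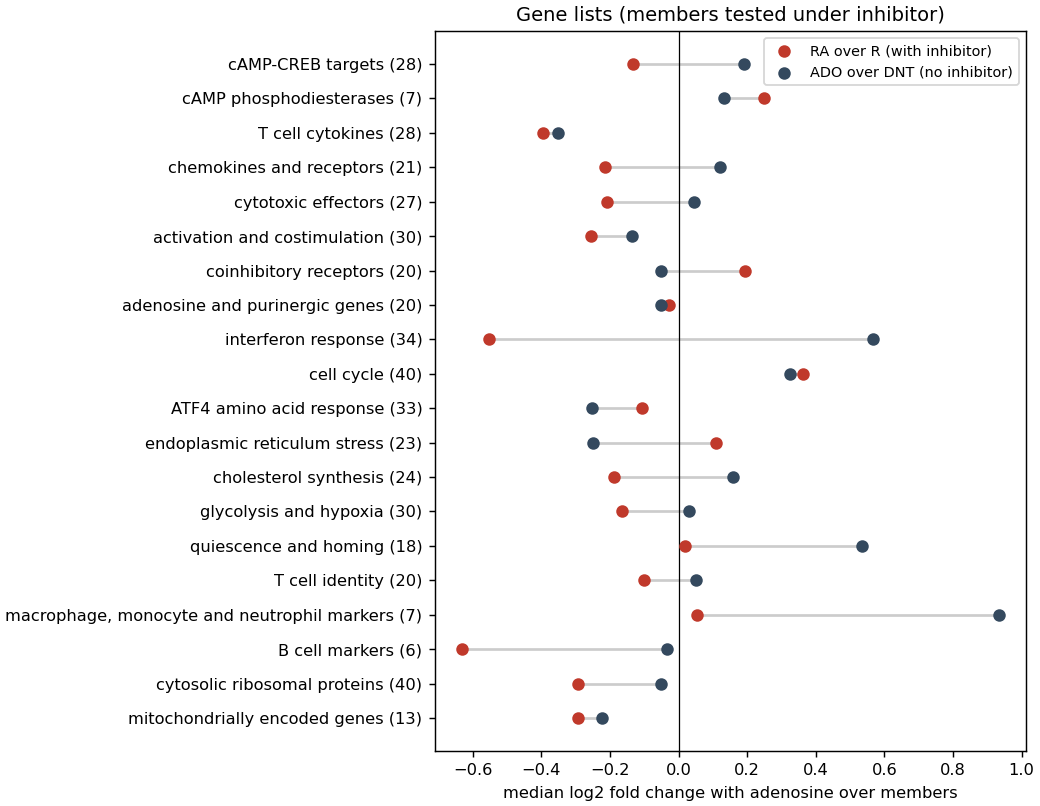
Median log2 fold change with adenosine over the members of each gene list, under the inhibitor (RA over R) and without it (ADO over DNT), with the number of members tested under the inhibitor in brackets. The medians lie close for cell cycle genes and T cell cytokines and on opposite sides of 0 for the interferon response, −0.55 under the inhibitor and 0.57 without it. All 12 libraries are used, and without R-3 the median of the T cell cytokines under the inhibitor was −0.16.

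Transcripts of other cell types differed between the sets as well. Of 24 listed markers of macrophages, monocytes and neutrophils, 11 had enough counts to be tested, and these summed to 87.7 to 95.6 CPM in RA and 89.9 to 117 CPM in R, against 25.9 to 28.6 CPM in ADO and 14.8 to 16.8 CPM in DNT. Csf1r was not among the genes tested, and Lyz2 was at 1.07 CPM or less in every library. The difference was negative for 3 of the 11, Fcgr3, Cd14 and Clec4e, with −2.56 ± 0.22, −2.48 ± 0.35 and −1.14 ± 0.29, and Fcgr3 was one of the 32 reversed genes. Without R-3 the count was also 3. The difference of Clec4e passed without R-2 or R-3 but not when any other single library was left out. B cell markers with enough counts for at least 1 fit, 9 of 18 listed, summed to 69.8 to 83.5 CPM in RA and 92.7 to 108 CPM in R, against 39.9 to 41.8 CPM in ADO and 47.0 to 52.1 CPM in DNT, and 0 of 7 tested passed in the difference. Without R-3, 3 of them, H2-Aa, H2-Ab1 and Cd74, had a negative difference. The part of these transcripts in the results above was not tested. Cytosolic ribosomal proteins had 0 of 40 members past the test in the difference, with a median of −0.29 with all libraries and 0.15 without R-3. It passed for 0 of them without R-3 either. T cell identity genes had 1 of 20, Cd7, with −1.24 ± 0.22, and without R-3 there were 4 positive and 3 negative differences. The counts of differences for these marker lists stand beside 0.909% positive and 3.14% negative over all genes. Without R-3 these shares were 10.6% and 9.18%.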

How the data were processed

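The values used are raw counts per Ensembl gene, in 2 tables deposited by the authors, 1 for RA and R and 1 for ADO and DNT. Reads were aligned with HISAT2 2.1.0 to GRCm38, per the submitters' processing notes, while the counting tool, the annotation and the use of strand are not stated there. Where counting ignored strand, reads of overlapping or antisense genes cannot be told apart. Total counts per library ran from 20156082 to 23855783. Symbols and coordinates came from GENCODE M21 for GRCm38, which held 99.64% of the IDs.

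Groups came from the sample labels. The main test was the robust, two-sided quasi-likelihood test of edgeR 4.0.16 (R 4.3.3), after filterByExpr with the groups and with TMM scaling, and p-values were adjusted by Benjamini-Hochberg across every gene tested with a threshold of 0.05. RA minus R and ADO minus DNT were fitted on their own 6 libraries and the difference on all 12, with a single dispersion per gene although spread was unequal. For Rsad2 the SE of the difference was 0.20, below the 0.27 of RA minus R, while for Il2 it was 0.29 against 0.24. Where the SE of the difference is the smaller one, its p-value may be too small and a change too readily called lost. Each SE was obtained from the log2 fold change and the root of its F statistic. CPM were scaled with TMM factors over the 12 libraries. For principal components, 3 was the prior count added before taking log2 CPM. The test of the difference was also run on simulated data, with results not given here. Alternatives are listed in the closing section (DESeq2 1.42.0, limma 3.58.1 and others).

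The members, the 20 gene lists, the panel of 24 genes and the classes were chosen with earlier results of these data known. Beside the panel, the naming rule took, among 2-fold changes with a mean of at least 5 CPM in each set and ADO and DNT libraries apart, the 4 largest lost and kept rises and falls, the 4 weakened or strengthened with the largest difference, likewise gained genes, and the 3 members of each list with the smallest p. Figures were drawn with Python 3.11.15 and matplotlib 3.10.9.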

Additional observations from a re-analysis of the deposited data

Results flagged for a closer look

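The results below are listed because the adenosine effect differed between the sets with and without the inhibitor, by edgeR's test of the difference itself. Values are log2 differences, RA minus R less ADO minus DNT. Inhibitor and set changed together throughout. The difference was positive for 136 genes and negative for 470.

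Positive differences among named genes were found for the cytokines and growth factors Il10 (1.11), Ccl1 (1.21), Il17f (1.28), Il24 (1.08), Pdgfb (0.72) and Tnfsf10 (0.70), for the transcription factors Batf3 (1.08), Zfp683 (1.36) and Irf4 (1.0), for Entpd1 (0.68), Ramp3 (1.22), Ccr4 (1.0), Stra6 (1.72) and Crybg2 (1.32), and for the chaperones and folding factors Creld2 (0.73), Sdf2l1 (0.54) and Dnajc3 (0.53).

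Negative differences were found for the interferon-stimulated genes Rsad2 (−4.66), Irf7 (−2.83), Usp18 (−2.07), Cxcl10 (−2.19) and Gbp2 (−1.44), and for the signalling genes Rgs2 (−1.82), Fos (−1.08), Dusp1 (−1.15), Relb (−0.82), Igf1r (−1.23), Adora2a (−0.65) and Nt5e (−0.78). They were also found for Ier5l (−1.46), Tnfrsf26 (−1.28), Perp (−0.93), Cxcr4 (−1.29), Ctla4 (−0.71), Cd7 (−1.24), Tcf7 (−1.04), Klf2 (−1.06), Ltb (−0.88), Gzmf (−1.53), Gzmg (−0.86) and Cenpa (−0.63). Further negative values were those of Avil (−1.68), Nrgn (−1.01), Adgrg3 (−1.15) and Gpc1 (−1.18), of the metabolic genes Mvk (−1.01), Tm7sf2 (−0.99), Mvd (−0.58), Bnip3l (−0.77), Aldoc (−0.86) and Aldoa (−0.59), and of the myeloid markers Fcgr3 (−2.56), Cd14 (−2.48) and Clec4e (−1.14).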

How the results depend on the processing

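With any one library left out in turn, the difference was positive for 44 to 1633 genes and negative for 230 to 1418. Under the inhibitor 5 to 725 genes rose and 31 to 994 fell, and without it 3389 to 3707 rose and 3292 to 3574 fell. Of 2-fold changes, 53 to 133 were lost, 1 to 31 weakened, 6 to 83 kept, 1 to 6 strengthened, 0 to 8 reversed, 124 to 309 undecided and 222 to 300 not tested. Over all adenosine changes 190 to 1660 were lost, 6 to 614 kept and 12 to 286 reversed. The highest counts of calls in RA minus R, in the difference and of lost, kept and reversed genes came without R-3.

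Scaling by library size alone gave 72 positive and 168 negative differences and 48 falls under the inhibitor, with 55 lost and 1 weakened 2-fold changes, and 170 lost, 30 kept and 17 reversed over all changes. The median change of all genes under the inhibitor was then 0.093, against −0.036 with TMM factors, so list medians nearer to 0 than this shift have no fixed sign. Without a filter on low counts, 156 genes rose and 329 fell under the inhibitor, 2-fold changes held 10 weakened, 95 kept, 8 reversed, 506 undecided and 36 not tested, and all changes held 233 kept and 67 reversed. A filter at 1 CPM in 3 libraries left 135 undecided and 142 not tested. DESeq2 gave 539 positive and 848 negative differences, 181 rises and 352 falls under the inhibitor, 17 weakened, 69 kept, 4 reversed and 134 undecided 2-fold changes, and 888 lost, 220 kept and 74 reversed in all. Limma-voom gave 1 reversed 2-fold change. With weights per set it gave 65 rises and 213 falls under the inhibitor, 0 strengthened, 606 undecided and 0 not tested among 2-fold changes, and 134 kept and 53 reversed in all. A fit of all 18 libraries, which shares its dispersions with the third set of the series, gave 391 positive differences, 885 rises and 893 falls under the inhibitor, 1439 rises and 870 falls without it, 26 weakened, 107 kept, 8 reversed and 0 not tested 2-fold changes, and 495 kept and 99 reversed in all. RLE factors kept these counts within 1.5 times. The cause of these shifts was not tested.

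The replicate numbers were fitted as a block as well. The pairing check gave correlations of deviations of 0.0175, −0.1271 and −0.0916 for RA and R and 0.0121, 0.009 and −0.0083 for ADO and DNT. These values show no pairing by number. With 3 libraries per group and R-3 far out, they cannot exclude one. With the block there were 19 positive and 141 negative differences, 32 lost, 1 weakened and 1 reversed 2-fold changes, and 102 lost in all.

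Of 54 named genes with a difference past the test, 18 passed under all 21 alternatives, among them Rsad2, Irf7, Usp18, Cxcl10, Gbp2, Rgs2, Stra6, Zfp683, Ccl1, Fcgr3, Gzmf and Il17f. The calls of Irf4, Entpd1, Creld2, Igf1r, Fos, Ccr4, Nrgn, Relb and Bnip3l ended with library size alone and with the block, those of Batf3, Il10 and Crybg2 with the block, that of Cxcr4 with library size alone, that of Cd14 with all 18 libraries, that of Ltb with library size alone and all 18 libraries, that of Cd7 with the block and weights per set, and that of Ramp3 with weights per set, which also ended those of Fos and Igf1r. Adora2a lost its call with library size alone, without the filter and with the block. Perp, Ctla4, Nt5e, Pdgfb, Dusp1, Tcf7, Klf2, Adgrg3, Tm7sf2 and Clec4e, among others, lost theirs without single libraries and with the block. Some differences near 0 changed sign. That of Tnf was 0.0173 with library size alone and −0.128 to 0.0709 with a library left out. Adora2b had −0.0076 with the 1 CPM filter, −0.0054 with limma-voom, −0.0123 with weights per set and −0.125 to 0.143 with a library left out. Plaur had 0.0063 with RLE factors, 0.0604 with library size alone, 0.0167 with DESeq2, 0.0084 with all 18 libraries and −0.185 to 0.174 with a library left out. With a library left out Prf1 ranged from −0.235 to 0.0925, Tg from −0.0482 to 0.495 and Rpl17 from −0.639 to 0.0927. Depth limits genes of low level: 248 of the 607 2-fold changes were not tested in RA and R.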
